A study of Mus musculus with 6 samples.

Results

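Transcript levels of the heat shock proteins and molecular chaperones were described in hearts of mouse embryos at embryonic day 11.5. The mutant hearts had lost Dicer, an enzyme that releases mature miRNAs from their precursors, through a Cre recombinase knocked into the Nkx2.5 locus. Nkx2.5 is active in cardiac progenitors and cardiomyocytes, so cells of the heart outside that lineage could keep the gene. The control hearts came from the same stage, and the sources used here do not give their genotype. Each group had 3 single-colour CodeLink arrays of total RNA. A probe belonged to the set when the platform annotation gave it a single gene symbol that begins with Hspa, Hspb, Hspd, Hspe, Hsph, Hsp90, Dnaja, Dnajb or Dnajc, that is Cct or Bag followed by a digit, or that is Tcp1. This took 98 of the 21676 spots with a single gene, for 82 genes, each represented by its brightest probe. Of the 82 genes, 74 exceeded background on 3 or more arrays and were tested among 15012 genes in all, and 71 were above background on every array.

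Chaperones bind unfolded or partly folded proteins and keep them from aggregating. HSP70 proteins do this in cycles of ATP hydrolysis that J-domain proteins (the DNAJA, DNAJB and DNAJC families) start and that nucleotide exchange factors, among them HSP110 and the BAG proteins, reset. HSP90 acts on late folding steps of kinases and receptors, the CCT ring (TRiC) encloses actin and tubulin, and the small heat shock proteins, several of them abundant in striated muscle, hold unfolded clients without using ATP. Heat and other stress raise a subset of these genes through heat shock factor 1, while unfolded protein in the endoplasmic reticulum raises another subset.

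The promoter stretches that carry the binding motifs of those responses are shown first because the genes holding them are described one by one below. They are RefSeq sequences of mouse build GRCm38.p6, read 5′ to 3′ on the strand of the gene, with the motif in capitals, and all end before the transcription start. Hspa1a (chr17:34972157-34972286, minus strand) and Hspa1b (chr17:34959239-34959368, minus strand), the paired stress-inducible HSP70 genes, each held 1 heat shock element of 2 units, written GAANNTTC or TTCNNGAA.
Hspa1a: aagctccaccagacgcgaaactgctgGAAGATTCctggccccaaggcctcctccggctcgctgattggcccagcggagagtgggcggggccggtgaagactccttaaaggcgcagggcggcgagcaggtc
Hspa1b: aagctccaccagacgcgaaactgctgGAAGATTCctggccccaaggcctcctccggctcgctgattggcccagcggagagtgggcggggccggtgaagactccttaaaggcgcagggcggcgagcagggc
Over the 250 bases before the start the promoters of this pair were identical at 247 positions (98.8%).

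The 3-unit heat shock element, GAANNTTCNNGAA or TTCNNGAANNTTC, was found in the promoter window (250 bases before to 50 after the start, both strands) of 3 of the 68 chaperone genes with a promoter in the table (4.41%), Hspd1, Dnajb6 and Hsph1. It occurred in 179 of all 27025 genes (0.662%). The shorter 2-unit element, which lies inside each 3-unit one, occurred in 19 of the 68 (27.9%) and in 17% of all genes. Hspd1 (chr1:55088039-55088096, minus strand), which encodes the mitochondrial chaperonin HSP60, held overlapping copies of the 3-unit form, and Dnajb6 (chr5:29735832-29735884, plus strand), a J-domain protein that suppresses aggregation, held 1.
Hspd1: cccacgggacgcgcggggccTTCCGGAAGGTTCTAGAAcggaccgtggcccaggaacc
Dnajb6: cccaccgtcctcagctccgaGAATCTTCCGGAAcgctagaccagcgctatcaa

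The endoplasmic reticulum stress element, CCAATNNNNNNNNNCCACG or its reverse complement, was found in 3 of the 68 chaperone promoters (4.41%) and in 37 of all 27025 (0.137%). The 3 were Hspa5 (chr2:34772005-34772063, plus strand), the reticulum's HSP70 known as BiP, Hsp90b1 (chr10:86705513-86705676, minus strand), its HSP90 known as GRP94, and Dnajc3 (chr14:118937807-118937865, plus strand), a J-domain partner of BiP. Hsp90b1 held 2 copies, 1 on each strand.
Hspa5: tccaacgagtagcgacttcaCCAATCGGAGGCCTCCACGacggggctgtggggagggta
Hsp90b1: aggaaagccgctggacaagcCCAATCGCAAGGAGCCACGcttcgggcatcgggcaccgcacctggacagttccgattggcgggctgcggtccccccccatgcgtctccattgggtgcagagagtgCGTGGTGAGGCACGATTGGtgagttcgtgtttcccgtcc
Dnajc3: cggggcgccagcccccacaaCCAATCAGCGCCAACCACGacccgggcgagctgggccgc
These matches describe letters in a window and were not tested for binding.

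Levels below are log2 intensities after background correction and quantile normalization, differences are mutant minus control on that scale, and errors of differences are standard errors from limma. Levels of different probes cannot be set against each other. Between 74.1% and 78.2% of the 36227 spots were above background on an array. Dicer1 fell to 0.498 of the control level (limma adjusted p = 0.036), and whether its probe lies in the deleted part is not known here. Whether a group's arrays came from separate embryos is not in the labels, and p-values therefore reflect only the spread among these samples, which can be technical. In whole hearts, fewer cells of a type and less RNA per cell cannot be told apart. Cardiomyocyte markers were present (9 of 9 tested, all above background on at least 4 of 6 arrays), and of 6 liver markers Afp, Ttr and Trf exceeded background on every array and Apoa2 on 5, while Alb and Apoa1 were not tested.

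No chaperone gene passed the test: 0 of 74 had a limma adjusted p under 0.05, against 9 of 15012 genes (0.06%), and the smallest adjusted p was 0.227. Most differences were small and above 0. Of the 74 genes, 52 (70.3%) had a higher mean in the mutant arrays and 21 a lower one, against 52.3% above 0 among all genes. The median difference was 0.10, against 0.01 over all genes, and the range ran from -0.73 to 0.93. In 44 of the 74 the difference was at most 0.2 in size, and in 67 the 95% interval included 0. At an unadjusted p under 0.05 there were 7 genes higher in the mutant (9.46%, against 6.71% of all genes) and 0 lower (against 3.47%). These 7 became 4 without control 2, 12 without mutant 3 and 17 without control 3, counted in both directions. Over the whole array, 1775 of 17727 probes were under that p, and they became 841, 2748 and 3719 in the same fits. The 3 mutant arrays all lay above the 3 control arrays in 12 genes (16.2%, against 9.73%) and all below in 2 (2.7%, against 5.5%).

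**Figure D1:**
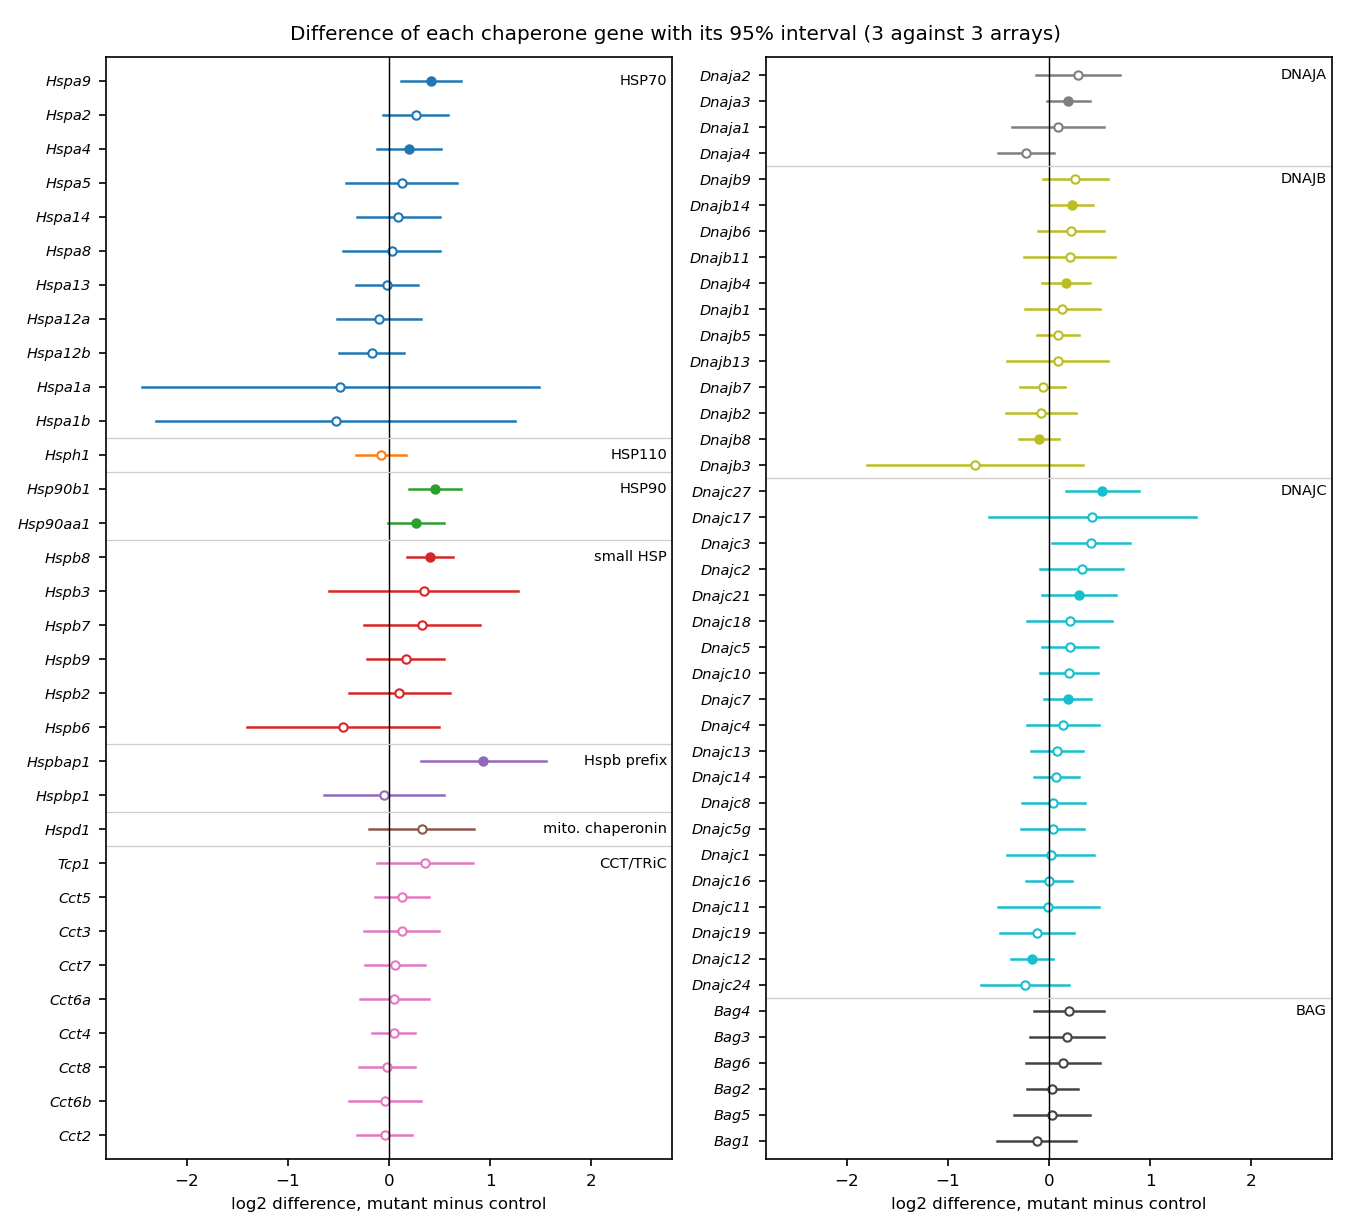
Log2 difference, mutant minus control, of each of the 74 chaperone genes tested (horizontal axis) with its 95% interval from limma, 3 against 3 arrays, by family; filled points mark genes whose groups do not overlap. The points run from -0.73 (Dnajb3) to 0.93 (Hspbap1), and 67 of the 74 intervals cross 0.

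Most family medians lay above 0. The median difference was 0.36 for HSP90 (2 genes), 0.25 for the small heat shock proteins (6), 0.14 for DNAJA (4), 0.11 for both DNAJB (12) and DNAJC (20 tested of 25), 0.09 for BAG (6) and 0.05 for CCT (9 tested of 10). For HSP70 (11 tested of 13) it was 0.03, and it turned to -0.06 with the authors' own normalized intensity. The CCT median turned to -0.01 without mutant 3, and the single HSP110 gene, Hsph1, gave -0.08. Between the arrays the shift was not even: the median level of the 74 genes, relative to each gene's mean, was 0.07 for mutant 1, 0.08 for mutant 2 and -0.01 for mutant 3. It was -0.10 for control 1, -0.12 for control 2 and 0.02 for control 3. Control 3 thus lay above mutant 3. Erythroid markers lay lower in the mutant in 8 of 9, with a median of -0.30 and 0 passing limma's test. The globins Hba-x, Hbb-bh1, Hbb-y and Hba-a1 gave -0.04, 0.08, -0.11 and -0.05, and the rest ran from -0.30 (Rhag) to -0.87 (Slc4a1). The summed signal of the 9 markers was 115648 to 123652 in the mutants against 123250 to 129091 in the controls. At an unadjusted p under 0.05, 1 of these markers, Gata1, was lower (against 3.47% of all genes). Their median deviation was 0.03, -0.20 and -0.04 for mutants 1, 2 and 3 against 0.37, 0.22 and -0.16 for controls 1, 2 and 3, so that controls 1 and 2, lowest for the chaperones, were highest for these markers. Their part in the chaperone values was not tested. Among the 73 genes with a value on every array, control 1 was the highest array in 3 (4.11%, against 19.3% of all genes). Control 2 was highest in 1 (1.37%, against 7.21%) and mutant 3 in 26 (35.6%, against 21.4%). Controls 1 and 2 were each the lowest array in 18 (24.7%, against 22.8% for control 1 and 11.8% for control 2).

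**Figure D2:**
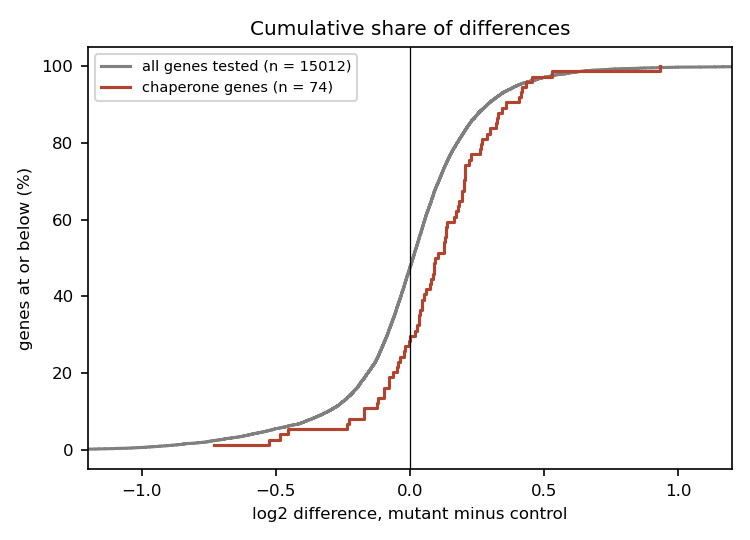
Cumulative share of genes (vertical axis, percent) at or below each log2 difference, mutant minus control (horizontal axis), for the 74 chaperone genes and for all 15012 genes tested; the tails beyond the axis are not drawn. The chaperone curve lies to the right of the other over most of its length, with medians of 0.10 and 0.01.

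**Figure D3:**
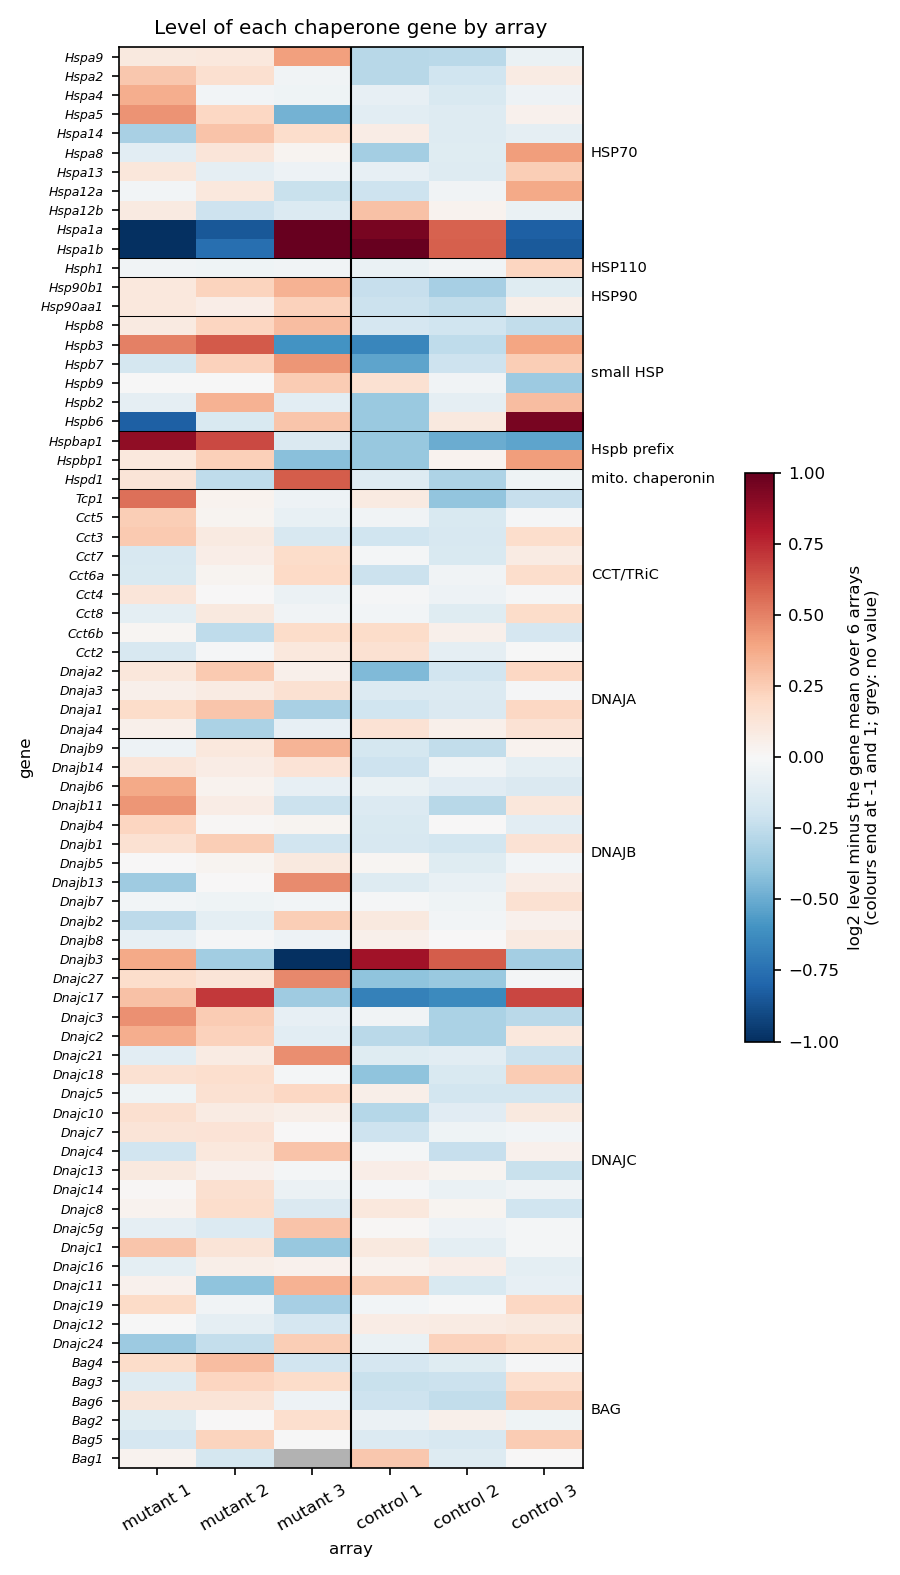
Level of each of the 74 chaperone genes on each of the 6 arrays as log2 deviation from the gene's mean (colour, ending at -1 and 1), by family; grey marks the missing Bag1 value of mutant 3. Hspa1a and Hspa1b are dark red in mutant 3 and control 1 and dark blue in mutant 1, and most rows are pale.

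The HSP90 genes were higher in every mutant array than in every control array. Hsp90b1, the GRP94 whose promoter is printed above, read 12.39, 12.51 and 12.63 in mutants 1, 2 and 3 against 12.05, 11.96 and 12.16 in controls 1, 2 and 3. The gap between the groups was about as wide as the spread inside each. The difference was 0.45 ± 0.11, a ratio of 1.37 (95% interval 1.15 to 1.63), with a limma adjusted p of 0.228. Hsp90aa1, the stress-inducible cytosolic HSP90, read 12.42, 12.38 and 12.55 in the mutants against 12.10, 12.07 and 12.37 in the controls. Its groups were separated only narrowly, by control 3 and mutant 2, and the difference was 0.27 ± 0.12 (adjusted p = 0.511). Hsp90ab1, the constitutive cytosolic form, had no probe listed under that symbol and was not analysed here.

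The endoplasmic reticulum genes, grouped after their values were seen, lay above 0 in 7 of 8 with a median of 0.20. Dnajc3 read 8.65, 8.45 and 8.11 in the mutants against 8.16, 7.88 and 7.92 in the controls, with mutant 3 under control 1. Its difference was 0.42 ± 0.16 (unadjusted p = 0.0374, limma adjusted p = 0.459). Hspa5 read 11.58, 11.34 and 10.67 in the mutants against 11.03, 11.01 and 11.18 in the controls. Mutants 1 and 2 were above all controls and mutant 3 was below all of them, which left a difference of 0.12 ± 0.23 (adjusted p = 0.875). Without mutant 3 it was 0.39, without mutant 2 0.05 and without mutant 1 -0.07, and with the inferred slide described below as a block 0.43. Of the 3 genes with the stress element in their promoters, mutant 3 was the highest array for Hsp90b1, the lowest for Hspa5 and in the middle for Dnajc3. Dnajb9, a J-domain protein that binds BiP, gave 0.26 ± 0.13, or 0.16 without mutant 3, and its dimmer probe 0.35. Dnajb11, a further BiP partner, gave 0.21, Dnajc10, a disulfide reductase of the reticulum, gave 0.20 and Hspa13 gave -0.02. The brightest probe of Dnajc1 gave 0.02 and its dimmer probe 0.40, with all mutant arrays above all control arrays on the dimmer one.

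The mitochondrial chaperones were led by Hspa9, the matrix HSP70 known as mortalin. It read 11.55, 11.56 and 11.86 in the mutants against 11.17, 11.18 and 11.38 in the controls, so that the groups did not overlap. The difference was 0.41 ± 0.12, a ratio of 1.33 (95% interval 1.08 to 1.64), with a limma adjusted p of 0.339. Dnaja3, its J-domain partner Tid1, was dim and also did not overlap, at 6.88, 6.91 and 6.98 against 6.69, 6.69 and 6.82, a difference of 0.19 ± 0.09 (adjusted p = 0.535). It was 0.36 with the subtracted intensity and 0.34 with the authors' normalized intensity, which carry no offset. Hspd1, with the 3-unit heat shock elements, read 10.77, 10.39 and 11.25 in the mutants against 10.51, 10.33 and 10.60 in the controls. Mutant 3 was far above the rest and mutant 2 lay among the controls, and the difference was 0.32 ± 0.22 (adjusted p = 0.637). It was 0.10 without mutant 3, 0.53 without mutant 2 and 0.07 with the inferred slide as a block. Dnajc19, of the import motor, gave -0.12 and Dnajc11, of the inner membrane organizing complex, 0.00. Hspe1, the partner of Hspd1, had no probe listed under that symbol and was not analysed here.

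**Figure D4:**
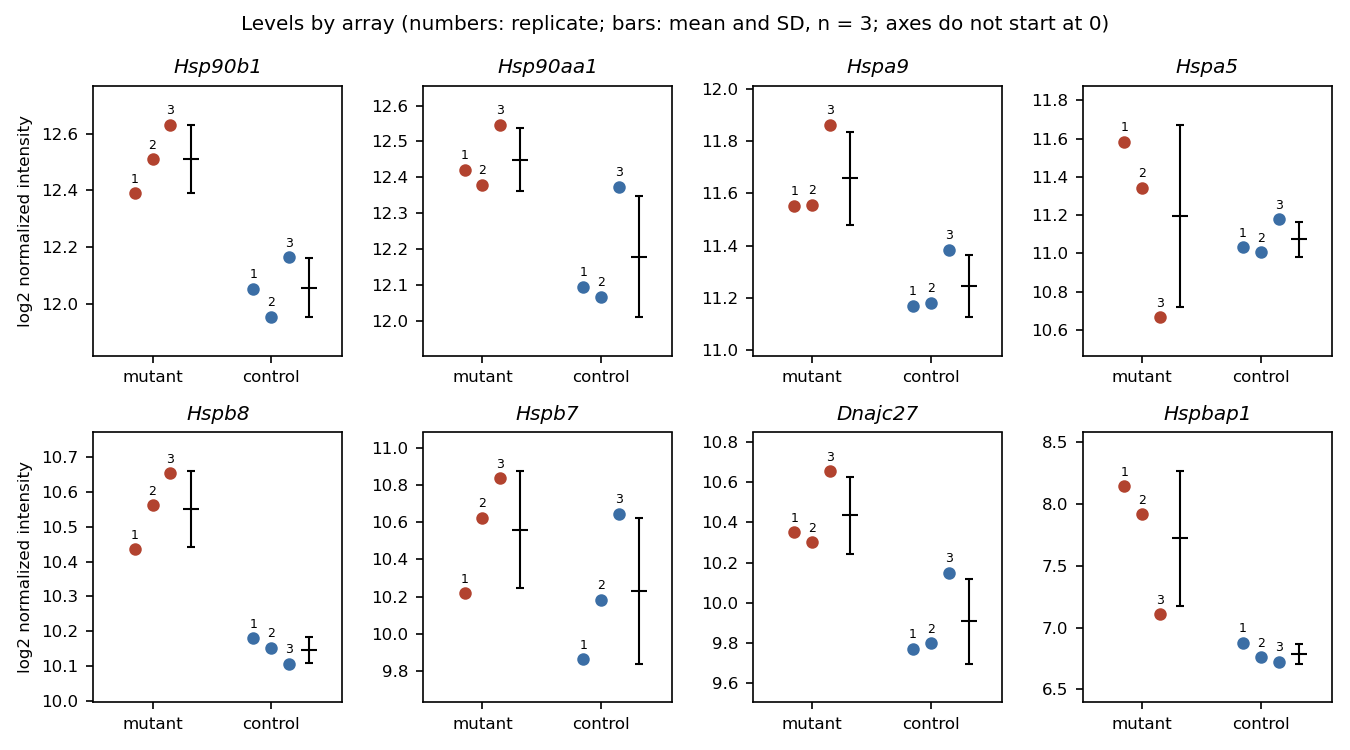
Log2 normalized intensity (vertical axes, which do not start at 0) of 8 chaperone genes in the 3 mutant and 3 control arrays, each point an array numbered by its replicate, with the group mean and SD as bars. Hsp90b1, Hsp90aa1, Hspa9, Hspb8, Dnajc27 and Hspbap1 do not overlap between the groups, while Hspa5 and Hspb7 do.

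Among the small heat shock proteins Hspb8, which works with Bag3 in chaperone-assisted autophagy in muscle, had the smallest p of all chaperone genes. It read 10.44, 10.56 and 10.65 in the mutants against 10.18, 10.15 and 10.11 in the controls. The control arrays were close together and every mutant array was above them. The difference was 0.40 ± 0.09, a ratio of 1.32 (95% interval 1.13 to 1.55), with an unadjusted p of 0.00407 and a limma adjusted p of 0.227. Hspb7, a heart-enriched small heat shock protein, read 10.22, 10.62 and 10.84 against 9.86, 10.18 and 10.64. Control 3 reached into the mutant range, and the difference was 0.33 ± 0.24 (adjusted p = 0.659). It was 0.14 without control 1, 0.19 without mutant 3, 0.50 without mutant 1 and 0.54 without control 3. Hspb2, which lies beside the crystallin gene Cryab in the genome, read 11.52, 11.96 and 11.50 against 11.23, 11.51 and 11.92, with a difference of 0.10 ± 0.21 (adjusted p = 0.887) that turned to -0.06 without control 1 and -0.05 without mutant 2 and was 0.28 without control 3.

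The muscle members Hspb3 and Hspb6 varied more inside the groups than between them. Hspb3 read 11.42, 11.54 and 10.32 in the mutants against 10.27, 10.67 and 11.32 in the controls, so that mutant 3 sat with controls 1 and 2, and control 3 with mutants 1 and 2. Hspb6 read 8.15, 8.82 and 9.25 against 8.60, 9.07 and 9.92, with the lowest value in mutant 1 and the highest in control 3. Their differences were 0.34 ± 0.39 and -0.46 ± 0.40. The 9 cardiomyocyte markers also moved between arrays. Of them 5 had a difference above 0 and 4 below, with a median of 0.10 and 0 passing limma's test. At an unadjusted p under 0.05, 2 of the 9, Tnnt2 and Tnni3, were higher in the mutant (against 6.71% of all genes). The median deviation of the 9 was 0.11 for mutants 1 and 2 and -0.03 for mutant 3. It was -0.32, -0.16 and 0.44 for controls 1, 2 and 3. The summed signal of the 9 was 148110 to 168484 in the mutants against 118666 to 172122 in the controls. The part of these markers in the small heat shock values was not tested. Cryab, the small heat shock protein alpha B-crystallin, gave -0.04 ± 0.25. Hspb1, or HSP27, had no probe listed under that symbol and was not analysed here.

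Among all chaperone genes, Hspa1a and Hspa1b differed most within the groups. They encode near-identical HSP70 proteins, and whether each probe separates their transcripts is not known here. Hspa1a read 7.51, 8.08 and 10.46 in mutants 1, 2 and 3 against 9.87, 9.52 and 8.11 in controls 1, 2 and 3. Hspa1b read 8.45, 8.96 and 10.95 in the mutants against 10.74, 10.32 and 8.88 in the controls. For both genes mutant 3, control 1 and control 2 were high and mutants 1 and 2 and control 3 were low. The highest array was 7.73 times the lowest for Hspa1a and 5.69 times for Hspa1b. The within-group SD was 1.29 for Hspa1a and 1.16 for Hspa1b, at percentiles 99.8 and 99.7 of all genes tested. The group differences were -0.48 ± 0.82 and -0.53 ± 0.74, with limma adjusted p of 0.861 and 0.834, and that of Hspa1a turned to 0.10 without mutant 1. Without mutant 3 they were -1.37 and -1.27, and without control 3 -1.01 and -1.07.

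A slide is not named in the labels. Read from the start of the array titles, mutants 1 and 2 shared a slide with control 1, and each of the remaining arrays stood alone on its slide. A fit with that slide as a block rests on the comparison of the 3 arrays that share one. In it 5 of 74 chaperone genes passed limma's test, beside 1338 of 17722 probes over the whole array. Hspa1a gave -2.08 (adjusted p = 0.0247) and Hspa1b -2.04 (adjusted p = 0.0234), while Hspb3 gave 1.21, Dnajc17 1.18 and Hspbap1 1.15. Control 1 is the only control in that comparison.

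Other genes known to rise with heat shock did not spread as widely as Hspa1a and Hspa1b, whose values ranged over 2.95 and 2.51. The widest of the others were Hspd1, also highest in mutant 3, at 0.92 and Hspa8 at 0.76. Dnajb1, the main J-domain partner of the inducible HSP70, read 9.09, 9.18 and 8.74 in the mutants against 8.78, 8.76 and 9.08 in the controls. Its low arrays were mutant 3 and controls 1 and 2, the arrays that were high for Hspa1a, and the whole range was 0.44. Hsph1, the HSP110, ranged over 0.28 and Bag3, an exchange factor and partner of Hspb8, over 0.43. Their differences were 0.13 ± 0.15 for Dnajb1, -0.08 ± 0.11 for Hsph1 and 0.18 ± 0.15 for Bag3, with adjusted p from 0.702 to 0.824. With each array left out, that of Dnajb1 ran from 0.05 (without mutant 2) to 0.27 (without mutant 3) and that of Bag3 from 0.12 (without control 1) to 0.31 (without control 3), and that of Hsph1 turned to 0.01 without control 3. Over the 10 chaperone genes grouped as heat-inducible, after their values were seen, 7 lay above 0 with a median of 0.11.

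Immediate early genes, which respond within minutes to handling and other stimuli, had 11 of 12 listed members tested, of which 0 passed limma's test. At an unadjusted p under 0.05, 2 of them, Egr2 and Dusp1, were lower in the mutant (against 3.47% of all genes). The summed signal of the 11 genes was 3953, 3826 and 5559 in mutants 1, 2 and 3 against 6419, 5951 and 4185 in controls 1, 2 and 3. It was high in the same 3 arrays as Hspa1a. Without Atf3 the sum was 3699, 3612 and 4915 against 4037, 4106 and 4060. In that sum the 3 controls no longer differed in the way of Hspa1a and mutant 3 alone stood out. The median deviation without Atf3 was -0.25, -0.17 and 0.16 for mutants 1, 2 and 3. For controls 1, 2 and 3 it was 0.04, 0.10 and -0.10, so by this measure the same 3 arrays as for Hspa1a lay above 0. Atf3 read 7.99, 7.74 and 9.33 in the mutants against 11.22, 10.85 and 6.97 in the controls, and Nr4a1 read 7.84, 8.01 and 9.87 against 9.04, 8.96 and 8.12. Not all followed, since Jun was lowest in mutant 3 (9.77) and highest in control 3 (10.82). The part of handling in the Hspa1a and Hspa1b levels was not tested.

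**Figure D5:**
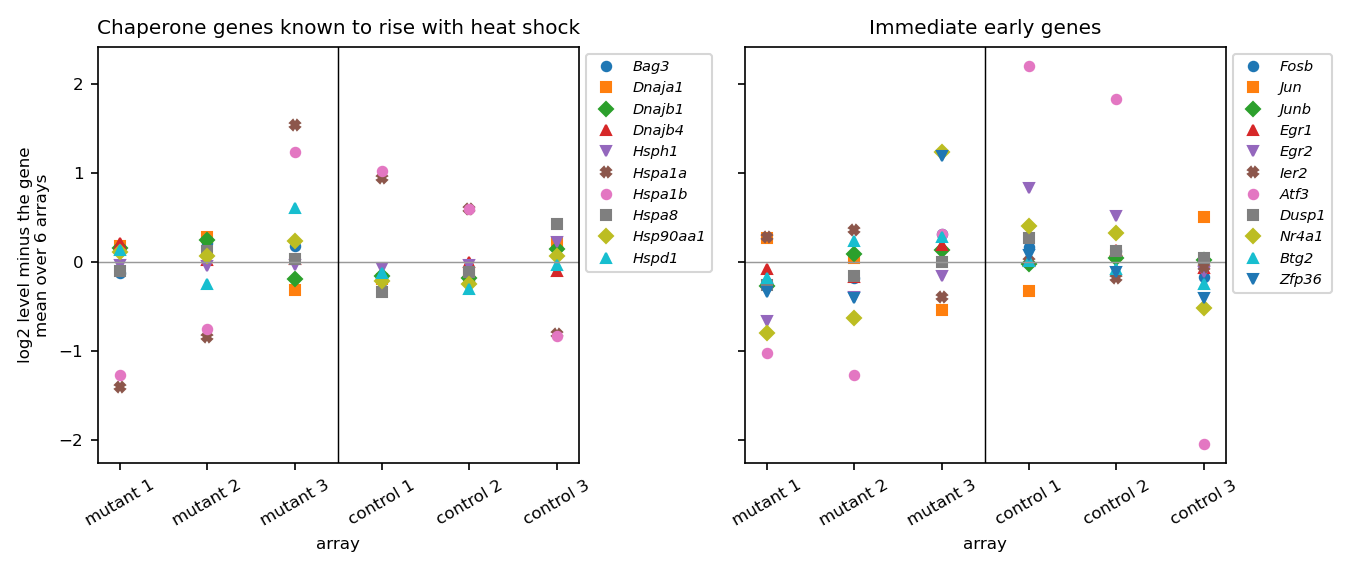
Log2 level minus the gene's mean over the 6 arrays (vertical axis) on each array, for the 10 chaperone genes known to rise with heat shock (left) and the 11 immediate early genes tested (right). Hspa1a and Hspa1b stand above 0 in mutant 3 and controls 1 and 2 and below in the other arrays, as Nr4a1 and Atf3 do, while the other 8 chaperone genes stay within 0.61 of 0.

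The other HSP70 genes ran from -0.17 (Hspa12b) to 0.26 (Hspa2) on their brightest probes, and none passed limma's test. Hspa8, the constitutive HSC70, read 13.66, 13.88 and 13.79 in the mutants against 13.42, 13.64 and 14.18 in the controls. Control 1 was lowest and control 3 highest, and the difference was 0.03 ± 0.20 (limma adjusted p = 0.969). It turned to -0.09 with the authors' normalized intensity, and its dimmer probes gave 0.50 and 0.04. Hspa4, an HSP110-type relative, gave 0.19 ± 0.13 without overlap, although mutant 3 at 11.15 and control 3 at 11.14 nearly met, and it was 0.06 without mutant 1. Hspa2, best known from spermatogenesis, gave 0.26, Hspa14 0.09, Hspa13 -0.02, Hspa12a -0.10 and Hspa12b, an endothelial member, -0.17. All 7 endothelial and endocardial markers tested were below 0 as well, with a median of -0.14 and 0 passing limma's test. Of the 7, 2 were lower at an unadjusted p under 0.05 (against 3.47% of all genes). The groups did not overlap, with the mutant lower, in 4 of the 7 (against 5.5% of all genes). The part of these markers in the Hspa12b value was not tested. Hspa1l and Hspa4l were not above background on enough arrays to be tested.

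The genes of the CCT ring differed little. Of the 9 tested, 6 had a difference above 0, 0 passed limma's test with 0 at an unadjusted p under 0.05, and none kept the groups apart. Tcp1, which encodes the alpha subunit, read 10.46, 9.95 and 9.87 in the mutants, 9.52 in control 2 and 9.68 in control 3, with control 1 between mutants 1 and 2. Mutant 1 was well above the rest, with a spot marked as contaminated there, and the difference was 0.36 ± 0.20 (limma adjusted p = 0.58). With contaminated and irregular spots set to missing it was 0.17. The other 8 ran from -0.04 (Cct2) to 0.13 (Cct5), with adjusted p from 0.705 to 0.959. The 95% interval of Cct4 was the narrowest of the 9, from -0.17 to 0.26.

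The J-domain proteins made up the largest group, with 36 genes tested and 26 above 0. Dnajc27, a small GTPase with a J domain, had the highest positive difference among them and no overlap, with 10.35, 10.30 and 10.66 in the mutants against 9.77, 9.80 and 10.15 in the controls. The difference was 0.53 ± 0.15, a ratio of 1.44 (95% interval 1.12 to 1.85), with a limma adjusted p of 0.31. Dnajb14, a membrane-anchored J-domain protein, read 8.76, 8.71 and 8.77 against 8.43, 8.60 and 8.54, tight in both groups and without overlap, with a difference of 0.23 ± 0.09 (adjusted p = 0.472). Dnajc21, a ribosome biogenesis factor, gave 0.30 ± 0.15 and Dnajb4 0.17 ± 0.10, with 0.28 on the dimmer probe of Dnajb4. Dnajc21 gave 0.14 without mutant 3, and Dnajb4 0.11 without mutant 1. Dnajc7, which binds both HSP70 and HSP90, gave 0.18 ± 0.10. Dnajc21, Dnajb4 and Dnajc7 also kept the mutants above the controls, with adjusted p from 0.566 to 0.592.

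Only Dnajc12 and Dnajb8 kept the mutant arrays below the controls. Dnajc12, a partner of the aromatic amino acid hydroxylases, read 9.04, 8.95 and 8.87 in the mutants against 9.11, 9.12 and 9.14 in the controls. Its control values were almost equal, and the difference was -0.17 ± 0.09 (limma adjusted p = 0.565), with 0.07 on its dimmer probe and -0.05 for the mean of both. Dnajb8, an aggregation suppressor best known from testis, gave -0.10 ± 0.08 (adjusted p = 0.707), or -0.06 with median scaling.

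Some J-domain genes varied widely inside the groups. Dnajc17, a nuclear member linked to splicing, read 8.06, 8.48 and 7.42 in the mutants against 7.09, 7.13 and 8.44 in the controls. Mutant 3 again sat with controls 1 and 2 and control 3 with mutants 1 and 2, as for Hspb3, and the difference was 0.43 ± 0.43. Dnajb3, another testis gene, read 9.69, 8.96 and 8.19 against 10.15, 9.92 and 8.97 and had the lowest difference of the set, -0.73 ± 0.45 (limma adjusted p = 0.604). Dnaja1, the cytosolic partner of HSC70, gave 0.09 ± 0.19, with 0.27 without mutant 3 and a value below 0 without mutant 2, and Dnajb6, whose promoter is printed above, gave 0.22 ± 0.14 with 0.25 on its dimmer probe. The other 16 DNAJA, DNAJB and DNAJC genes with a test and no value given so far ran from -0.24 (Dnajc24) to 0.32 (Dnajc2).

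Hspbap1 had the largest difference of the set, although it enters by its name alone: it encodes a protein that binds HSP27 and is no small heat shock protein. It read 8.14, 7.92 and 7.11 in the mutants against 6.88, 6.76 and 6.72 in the controls. Mutants 1 and 2 were well above the controls and mutant 3 only just. The difference was 0.93 ± 0.26, a ratio of 1.91 (95% interval 1.24 to 2.93), with an unadjusted p of 0.00952 and a limma adjusted p of 0.296. Without mutant 3 it was 1.24 with an adjusted p of 0.0661, and with the subtracted intensity it was 1.42. Hspbp1, an exchange factor of HSP70 that shares the prefix, gave -0.05 ± 0.25.

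The BAG genes, whose proteins release substrates from HSP70, lay between -0.12 (Bag1, on 2 mutant arrays because the value of mutant 3 was missing) and 0.20 (Bag4), 5 of 6 above 0. No BAG gene kept the groups apart, and Bag6, which guards newly made membrane proteins, gave 0.14 ± 0.15. Of the 13 chaperone genes with more than 1 tested probe, the dimmer probes numbered 15, and 10 had the sign of the brightest. The 8 genes not tested were Cct8l1, Dnajc15, Dnajc22, Dnajc28, Dnajc5b, Dnajc6, Hspa1l and Hspa4l.

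Of 49 listed folding genes outside the name rule, 39 were tested and 25 lay above 0 (64.1%, against 52.3% of all genes), with a median of 0.16. Limma's test passed 0 of them, and 3 had an unadjusted p under 0.05, all higher (7.69%, against 6.71% of all genes). The 7 mitochondrial genes had a median of 0.28 with 6 above 0. Grpel2, the exchange factor of Hspa9, gave 0.47 ± 0.17 (limma adjusted p = 0.409) and the protease subunit Clpp 0.79 ± 0.32 (adjusted p = 0.482), while Clpx, the unfoldase that feeds Clpp, gave -0.77 ± 0.35 (adjusted p = 0.532). The 16 HSP90 and HSP70 co-chaperones tested had a median of 0.14. Among them Unc45a, a myosin chaperone, gave 0.33 ± 0.13 (adjusted p = 0.482), and Fkbp5, an HSP90-bound prolyl isomerase induced by glucocorticoids, read 7.51, 7.11 and 7.56 in the mutants against 8.56, 8.50 and 6.97 in the controls. Fkbp5 was thus high in controls 1 and 2 alone. The 8 endoplasmic reticulum genes tested had a median of 0.18, with P4hb, the disulfide isomerase PDI, at 0.20 ± 0.09 (adjusted p = 0.521), and Calr, the lectin chaperone calreticulin, at -0.16 ± 0.18. Of the heat shock factors, Hsf2 gave 0.18 ± 0.24 and Hsf1 was not tested.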

How the data were processed

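RNA of embryonic hearts was hybridised to 6 single-colour arrays. The deposited scanner files hold, per the file headers, spot mean and background median intensity, a subtracted intensity, the authors' normalized intensity and a quality flag. Within an array the subtracted and normalized intensities differed by a constant factor of 66.1 to 82.8. About the scanner software the sources used here say nothing.

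Spot means were corrected with normexp (offset 50), put on the log2 scale from the deposited intensity and quantile-normalized over the 21880 spots listed with a gene, in limma 3.58.1 under R 4.3.3. Normexp with an offset pulls differences of dim probes towards 0. A probe above background on at least 3 arrays was tested with lmFit and eBayes, two-sided and without a block, with Benjamini-Hochberg adjustment over 17727 probes. The script was tested on simulated data. Symbols of all 98 chaperone spots matched RefSeq by gene number. The precision is limited by the number of arrays.

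The members and lists were chosen with earlier results of these data known. Named genes are 20 fixed symbols where measured, every gene that passed, and per family and direction up to 2 non-overlapping genes with the smallest p; the other genes with values were chosen after their values were seen. Alternatives changed the intensity, offset, normalization, filter, probe summary, block and arrays used. No test of any list was made.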

Additional observations from a re-analysis of the deposited data

How the results depend on the processing

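In every alternative run other than the inferred slide, 0 chaperone genes passed, as in the fit reported. With the slide as a block 5 of 74 passed, beside 1338 of 17722 probes over the whole array. The median over the chaperone genes, 0.10, was 0.16 with the slide and 0.072 to 0.162 with each array left out, the highest without control 3. The number of probes passing limma's test over the whole array, 9, was 5 with the subtracted intensity, 4 with the authors' normalized intensity, 5 with the mean of a gene's probes and 1338 with the slide. It was 0 with the title number as a replicate block, with 1322 probes at an unadjusted p under 0.05. It ranged from 0 to 320 with each array left out (320 without control 3). Same-numbered arrays had deviations that correlated at 0.01, -0.48 and -0.38, so they did not clearly deviate together from their group means. What the numbers mark is not in the labels, and these correlations cannot tell whether they stand for a pairing. Of 466 values of the 26 named genes over 18 alternatives, 449 kept direction and side of the threshold. With the title number as a block and with either changed filter, the differences of these genes could not change, only their p-values. Hspa1a, Hspa1b and Hspbap1 gained a call with the slide alone. Without any call, 14 values of Hspa8, Hsph1, Hspa1a, Hspa5, Hspb2 and Dnaja1 changed sign, and the cause was not tested. Treating irregular or contaminated spots as missing and normalizing over all spots were chosen after seeing the data. Array weights, also planned, were computed but not used in a fit because they did not converge. Control 2 took a weight of 151 and the other arrays 0.164 to 1.12. Signal limits Dnajb5 and Dnajc11, which were above background on only some arrays.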
